A study of Mus musculus with 51 samples.

Results

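The genes described here are 10 genes of fatty acid synthesis and its entry into glycerolipid: Srebf1, Thrsp, Acly, Me1, Acaca, Acacb, Fasn, Elovl6, Scd1 and Gpam. They were chosen by name for their place in the route, by a rule that uses no measured value though earlier results of these data were known, and all 10 were found among the 33773 gene symbols of the deposited expression matrix. The study measured RNA by sequencing in mouse hepatocytes and in mouse liver, to ask what adult hepatocytes express after loss of the FoxA transcription factors and, in a separate set, of HNF4a. The FoxA triple null libraries (4) came from mice with floxed Foxa1 and Foxa2 and no functional FoxA3, given at 8 weeks of age an adeno-associated virus, AAV8, that carries Cre under the hepatocyte-specific Tbg promoter. The FoxA3 null libraries (4) are taken here as their controls, which per the design text had the same transgenes and a virus expressing GFP, so both groups lack FoxA3. The FoxA1/A2 lox libraries (3) are undeleted, and the FoxA1/A2 Cre alfp libraries (4) have Foxa1 and Foxa2 deleted by the alfp Cre with FoxA3 present; the age and virus of these mice are not given. The liver set has 2 HNF4a control libraries and 4 libraries labelled HNF4a null, the latter described as depleted of HNF4a in the adult. No label says that the libraries of a group came from separate animals, so p-values measure the spread between libraries.

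Fatty acid synthesis turns surplus carbohydrate into fat. Citrate leaves the mitochondrion and is split to acetyl-CoA, which is carboxylated to malonyl-CoA and joined into palmitate at the expense of NADPH, and palmitate is then elongated, desaturated and esterified to glycerol. In liver the genes of this route are known for their strong induction by insulin and carbohydrate feeding, largely through the transcription factors SREBP-1c and ChREBP, and for their fall on fasting.

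Values are RPKM, the read number scaled by gene length and sequencing depth, so levels can be set side by side between genes. Differences between groups are on the log2(RPKM + 1) scale and come from limma fits over all genes, 1 for the 15 hepatocyte libraries and 1 for the 6 liver libraries. A gene is called when its Benjamini-Hochberg adjusted p over all genes of the fit is under 0.05 and its difference is at least 1 in size. All 10 genes passed the filter on low values in both fits. Absolute depth is unknown. Relative depth was inferred from ratios of low RPKM values between each library and a reference lox library. It ran from 2.01 to 2.43 in the triple null and FoxA3 null libraries and from 2.24 to 4.08 in lox and Cre alfp. In liver it ran from 1 to 1.1, which by this estimate makes low liver values the least precise.

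The targeted genes were examined first. Foxa2 was at 0.366 ± 0.103 RPKM (SD, n = 4) in the triple null and 13.7 ± 4.59 (n = 4) in FoxA3 null, and Foxa3 was at or below 0.0114 RPKM in every library of both groups. Foxa1 was reduced less, at 3.28 ± 0.283 RPKM in the triple null against 8.50 ± 1.85 in FoxA3 null (difference -1.13, limma adjusted p = 0.00011). In Cre alfp, Foxa1 was at 1.24 ± 0.1 RPKM (n = 4) and Foxa2 at 1.09 ± 0.127, against 6.72 ± 1.81 and 12.5 ± 6.26 in lox (n = 3). In the liver set Hnf4a went against its label. It was at 519, 545, 487 and 545 RPKM in libraries labelled HNF4a null and at 126 and 118 in the controls, and since each gene has a single value in the matrix, a deleted exon cannot be seen. Every direction drawn below from that set therefore refers to the libraries as labelled. The 8 hepatocyte markers were all above 1 RPKM on average in every group. Their summed level was 22470 to 30120 RPKM in the triple null against 31910 to 42500 in FoxA3 null, and 10810 to 11870 in libraries labelled HNF4a null against 21490 to 21930 in the controls. White fat also makes fatty acids, and of the 7 adipocyte markers Adipoq, Plin1 and Lep averaged below 0.1 RPKM in all 6 groups. Lipe, a lipase, averaged 1.90 to 12.2 RPKM, and Cfd was at 2.08 RPKM in HNF4a control and at most 0.212 in the other groups. Their part in the results was not tested.

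One library stood apart for these genes. In lox library 3 the summed RPKM of the 10 genes was 2625, against 434 and 297 in lox libraries 1 and 2. Each of the 10 genes was higher in it than in either of the other lox libraries, from 2.06 times their mean for Me1 to 12.2 times for Thrsp. Fasn, for example, was at 102, 46.7 and 506 RPKM in lox libraries 1 to 3. The inferred relative depth of library 3, 3.73, was the highest of the lox group. Its part in each comparison with lox was measured by leaving the library out. Values without it are given for the members and lists in the main comparison with lox. In the other comparisons they are given for members whose call it changed and for some other members. Estimates not given there also moved, as that of Fasn in the interaction did, from 1.06 to 0.11.

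**Figure D1:**
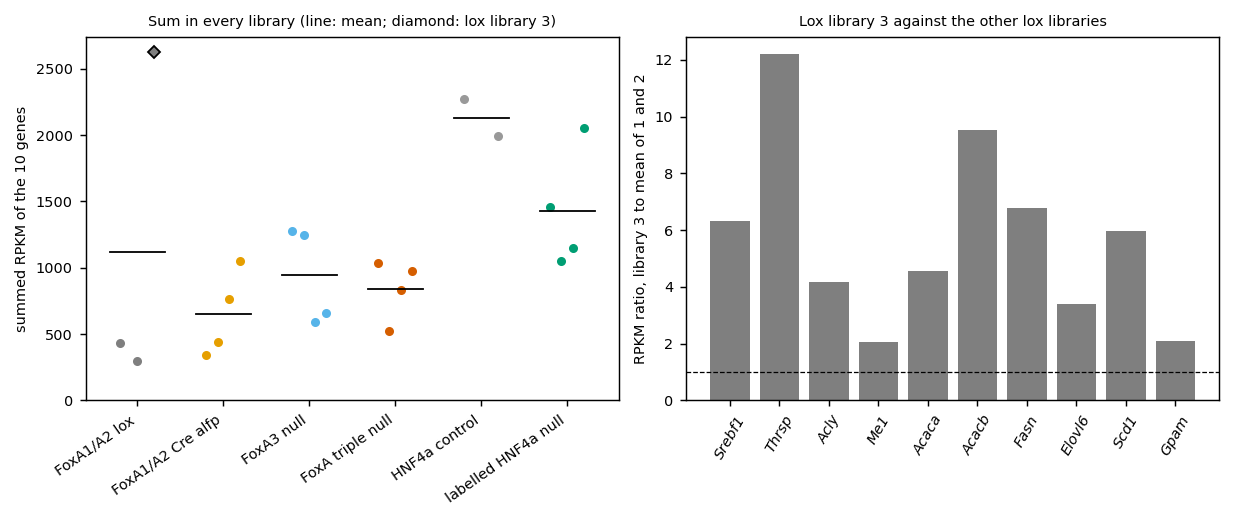
Left, summed RPKM of the 10 genes in each library (points), by group, with group means (lines). Right, ratio of RPKM in lox library 3 to the mean of lox libraries 1 and 2 for each gene (bars), with a dashed line at 1. Library 3 sums to 2625 RPKM and exceeds the other lox libraries for all 10 genes.

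High and low members differed by orders of magnitude within a group. In the FoxA3 null hepatocytes Scd1 had the highest mean at 488 ± 229 RPKM (n = 4), and Thrsp at 122 ± 65.6, Fasn at 110 ± 49.8 and Srebf1 at 108 ± 48.7 lay within 1 SD of each other. Acaca at 9.43 ± 9.38, Elovl6 at 7.45 ± 2.44 and Acacb at 3.05 ± 0.145 were the lowest. The liver set was ordered differently for Acaca, at 63.0 ± 7.22 RPKM (n = 2) in HNF4a control. Each of the 4 hepatocyte groups had a mean of at most 9.43 RPKM for this gene. Hepatocytes and whole liver are separate preparations of different inferred depth, so this is a description and was not tested.

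**Figure D2:**
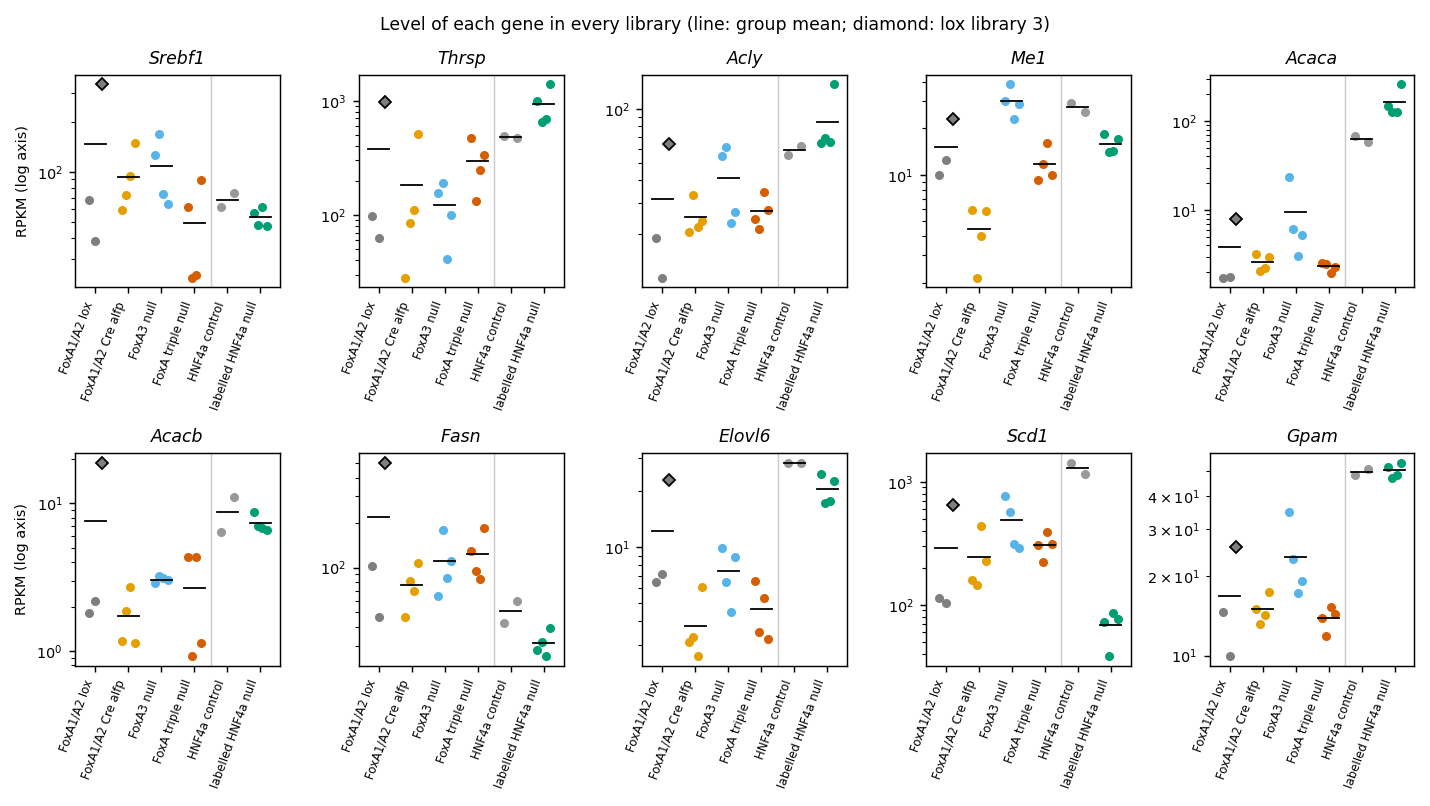
RPKM (log axis) of each gene in every library (points) with the group mean (line), for the 4 hepatocyte groups and, right of the grey line, the 2 liver groups; the diamond is lox library 3. Me1 is lower in the triple null than in FoxA3 null and lower in Cre alfp than in lox, and Scd1 is low in libraries labelled HNF4a null, at 38.4 to 85.7 RPKM.

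Promoter sequences are shown for 4 genes that the results below turn on: Elovl6, the one member with a FoxA motif, Me1, the member called in both comparisons of FoxA1/A2 deletion, and Fasn and Thrsp, which varied with Srebf1 between libraries. They are the 250 bases before the annotated start, 5′ to 3′, from RefSeq on build GRCm38.p6. RefSeq gave 13 starts for 9 of the 10 genes, and Scd1 had no entry. Me1 has 2 starts, and the one listed first is shown; the other window holds a CCAAT box. Capitals mark matches, on either strand, to any of 6 motifs: the FoxA core TGTTTAC, its variant TATTTAC, the HNF4a site CAAAGTCCA, the E-box CACGTG, the sterol response element TCACNCCAC and the CCAAT box.
Elovl6 (chr3:129532136-129532385, plus strand): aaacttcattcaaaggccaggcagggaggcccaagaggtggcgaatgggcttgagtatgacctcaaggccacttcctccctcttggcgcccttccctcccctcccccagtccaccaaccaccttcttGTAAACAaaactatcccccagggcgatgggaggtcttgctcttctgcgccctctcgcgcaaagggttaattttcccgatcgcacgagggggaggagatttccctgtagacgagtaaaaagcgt
Me1 (chr9:86695915-86696164, minus strand): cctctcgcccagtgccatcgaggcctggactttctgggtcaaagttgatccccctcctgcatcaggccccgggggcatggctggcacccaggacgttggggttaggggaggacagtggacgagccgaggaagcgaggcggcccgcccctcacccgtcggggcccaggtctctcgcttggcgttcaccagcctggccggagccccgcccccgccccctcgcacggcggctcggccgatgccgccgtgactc
Fasn (chr11:120824548-120824797, minus strand): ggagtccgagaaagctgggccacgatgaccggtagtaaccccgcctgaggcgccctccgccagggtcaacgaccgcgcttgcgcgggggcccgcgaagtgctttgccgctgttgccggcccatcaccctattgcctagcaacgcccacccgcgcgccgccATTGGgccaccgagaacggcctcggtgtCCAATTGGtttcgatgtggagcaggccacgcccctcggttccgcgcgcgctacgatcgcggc
Thrsp (chr7:97417551-97417800, minus strand): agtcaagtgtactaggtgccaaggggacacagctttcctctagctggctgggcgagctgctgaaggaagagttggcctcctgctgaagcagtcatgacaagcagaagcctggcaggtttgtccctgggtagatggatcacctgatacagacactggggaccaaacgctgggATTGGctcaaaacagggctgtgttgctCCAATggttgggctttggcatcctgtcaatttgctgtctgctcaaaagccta
The Elovl6 window held the FoxA core on the opposite strand, 123 to 117 bases before the start, and 3.17% of the 32851 windows of that length in the table hold this motif. CCAAT boxes were in windows of 6 members, among them 3 in Fasn, of which 2 overlap, and 2 in Thrsp; 33.8% of all windows hold one. Of the other motifs, TATTTAC is in 2.73% of all windows, the HNF4a site in 0.384%, the E-box in 6.02% and the sterol response element in 1.05%, and none of the members' windows matched them. A match is a description of the letters and shows no binding, and a missing match says only that these letters are not in this window.

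When Foxa1 and Foxa2 were deleted in hepatocytes that already lacked FoxA3, 2 of the 10 genes were called lower and none higher. Me1, the cytosolic malic enzyme that makes NADPH for the synthase, and Acaca, the carboxylase that makes the malonyl-CoA it uses, fell. The fall of Me1 was 2.56-fold in mean RPKM, and the call of Acaca was lost without any 1 of 7 of the 8 libraries. In this comparison 8.11% of all 11500 genes tested were called, 479 higher and 454 lower in the triple null. The median difference was -0.57 over the 10 genes and 0.05 over all genes. With more than 1 cell type in a bulk sample, fewer cells of a type and less RNA per cell cannot be told apart.

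In libraries 1 to 4 of the triple null Me1 was at 9.27, 11.7, 16.1 and 9.96 RPKM, and in those of FoxA3 null at 29.9, 38.6, 23.1 and 28.5. Every triple null library was below every FoxA3 null library. The difference was -1.29 (SE 0.28, limma adjusted p = 0.0035), with means of 11.7 ± 3.08 and 30.0 ± 6.40 RPKM (n = 4 each). Without any 1 of the 8 libraries it stayed between -1.44 and -1.17 and remained called. The authors' deposited table gives a log2 fold change of -1.40 for Me1 (adjusted p = 2.14e-13).

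Acaca was at 2.56, 2.49, 1.97 and 2.31 RPKM in the triple null. The FoxA3 null libraries were at 23.4, 6.06, 3.02 and 5.27, so the groups did not overlap, but library 1 was far above the rest. The difference was -1.29 (SE 0.46, limma adjusted p = 0.0491). Without FoxA3 null library 1 it was -0.76 (adjusted p = 0.126), and the call was also lost without any 1 of 6 other libraries of these 2 groups, at differences of -1.41 to -1.23. The authors' deposited table gives a log2 fold change of -0.39 for Acaca (adjusted p = 0.118).

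Gpam, the mitochondrial acyltransferase that starts glycerolipid synthesis, was at 13.8, 11.8, 15.3 and 14.4 RPKM in the triple null. It was at 34.9, 23.2, 17.3 and 19.2 in FoxA3 null, without overlap. The difference of -0.69 had a limma adjusted p of 0.046 but was under the minimum size, so Gpam was not called; 29.7% of all genes had an adjusted p under 0.05 in this comparison. Without FoxA3 null library 1 it was -0.49 (adjusted p = 0.137). The authors' deposited table gives a log2 fold change of -0.80 for Gpam (adjusted p = 0.000236).

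The remaining 7 genes overlapped between these groups and were not called; the groups did not overlap for 3 of the 10 members and for 27.9% of all genes tested. Srebf1, which encodes the SREBP-1 factors, had libraries at 61.1, 23.1, 24.1 and 88.9 RPKM in the triple null and at 127, 168, 73.7 and 64.5 in FoxA3 null. Its difference was -1.24 with a 95% interval from -2.54 to 0.05 (limma adjusted p = 0.135). Thrsp, the small lipogenic protein Spot 14, had the one large positive estimate, 1.35 with an interval from -0.57 to 3.26 (limma adjusted p = 0.276). Its libraries ran from 132 to 476 RPKM in the triple null and from 40.9 to 190 in FoxA3 null. Both intervals span 0 and are wide, so the data bound neither difference tightly.

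Acly, the citrate lyase that supplies cytosolic acetyl-CoA, had a difference of -0.51 (SE 0.42), and of -0.34 or -0.28 without FoxA3 null library 1 or 2. Scd1, the desaturase that makes oleate, and Elovl6, the elongase that extends palmitate, each had a difference of -0.57, with SE 0.53 and 0.35, and without FoxA3 null library 1 they were at -0.31 and -0.43. Acacb, the carboxylase at the mitochondrion whose malonyl-CoA restrains fatty acid oxidation, was at -0.30 (SE 0.52). Fasn, the synthase itself, was at 0.19 (SE 0.56), -0.03 without FoxA3 null library 1 and 0.46 without library 2, with 130, 94.5, 83.2 and 184 RPKM in the triple null and 64.5, 179, 85.2 and 111 in FoxA3 null. The interval for Fasn, from -1.01 to 1.39, includes both a halving and a doubling. For Scd1 and Elovl6 the log2 fold changes in the authors' deposited table are -0.70 (adjusted p = 0.0467) and -0.71 (adjusted p = 0.0315), which are not on the log2(RPKM + 1) scale of these estimates.

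**Figure D3:**
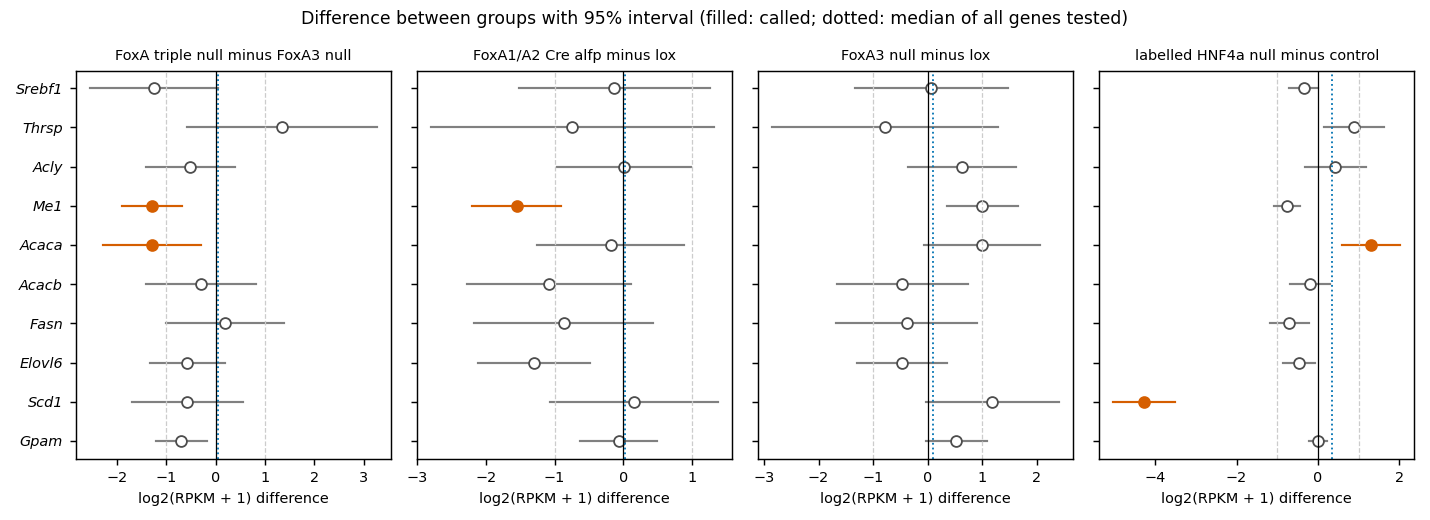
Difference in log2(RPKM + 1) of each gene in 4 comparisons (circles) with its 95% interval (lines); filled circles were called, dashed lines mark the minimum size of 1, and the dotted line is the median of all genes tested. Me1 lies below -1 in both comparisons of FoxA1/A2 deletion, and Scd1 at -4.27 in the liver set is the farthest from 0.

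With FoxA3 present, FoxA1/A2 deletion again came with less of the NADPH enzyme. Me1 was the 1 member called in Cre alfp against lox, lower by 1.55 on the log2 scale, and no member was called higher. Of all genes tested, 2.38% were called, 148 higher and 126 lower in Cre alfp. The median was -0.46 over the 10 genes and 0.02 over all, but lox library 3 set its sign: without that library the median of the 10 genes was 0.33, against 0.04 over all.

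The Cre alfp libraries had Me1 at 5.87, 2.15, 4.01 and 5.79 RPKM and the lox libraries at 9.96, 12.5 and 23.1. Every Cre alfp library was below every lox library. The difference was -1.55 (SE 0.30, limma adjusted p = 0.00866), with means of 4.46 ± 1.76 (n = 4) and 15.2 ± 6.98 RPKM (n = 3). Without lox library 3 it was -1.22 (adjusted p = 0.0364). It was no longer called when only these 2 groups were fitted (adjusted p = 0.0592).

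For Elovl6 the Cre alfp libraries were at 3.08, 3.29, 2.61 and 6.12 RPKM and the lox libraries at 6.47, 7.14 and 23.0, also without overlap. The groups did not overlap for these 2 members and for 19.9% of all genes. Its difference of -1.30 was not called (SE 0.38, limma adjusted p = 0.0659), and without lox library 3 it was -0.76 (adjusted p = 0.218). For Acacb, Fasn and Thrsp the estimates were -1.08, -0.87 and -0.74, and without library 3, the highest lox library for each, they were -0.17, 0.08 and 0.47. Srebf1 at -0.13, Acly at 0.01, Acaca at -0.18, Scd1 at 0.16 and Gpam at -0.06 had SE from 0.26 for Gpam to 0.65 for Srebf1. These 5 estimates also moved without library 3, to 0.77 for Srebf1, 0.69 for Acly, 0.39 for Acaca, 1.01 for Scd1 (limma adjusted p = 0.236) and 0.28 for Gpam, and none of them was then called. Me1 was still the 1 member called, against 2.32% of all genes.

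Whether the difference between deleted and undeleted libraries changed with FoxA3 status was tested as an interaction. The deletions also differed in their Cre, given by AAV8 where FoxA3 was absent and as the alfp Cre where it was present. That difference cannot be told apart from FoxA3 status. limma called none of the 10 genes, and none had an unadjusted p under 0.05 (29.8% of all genes did), while 6.82% of all genes tested were called. For Me1 the interaction was 0.26 with a 95% interval from -0.63 to 1.15 (adjusted p = 0.712). Acaca gave -1.11 (interval -2.56 to 0.35) and Thrsp 2.08 (interval -0.73 to 4.90), so sizeable differences in these 2 genes are within the error. Leaving out lox library 3 left no member called either, against 7.58% of all genes, but several estimates were larger. Gpam was at -0.97 (limma adjusted p = 0.0497, under the minimum size), Acaca at -1.67 (0.0912), Scd1 at -1.58 (0.0835) and Srebf1 at -2.01 (0.079), while Me1 was at -0.07 and Thrsp at 0.88. Without FoxA3 null library 1 instead, Acaca was at -0.58 (limma adjusted p = 0.475), Scd1 at -0.46 and Gpam at -0.42, so these values depend on single libraries.

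The comparisons across FoxA3 genotype are secondary. FoxA3 status separates the triple null and FoxA3 null libraries from lox and Cre alfp, and it cannot be told apart from anything else that parts these sets of libraries. The 3 comparisons share groups with each other and with those above. They also moved the median of all genes by 0.10 to 0.13.

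Me1 was higher in the triple null than in Cre alfp, both deleted for Foxa1 and Foxa2, by 1.26 (SE 0.28, limma adjusted p = 0.00288), and by 1.14 after the median shift was subtracted. This was the 1 member called in that comparison, where 10.3% of all genes tested were called, 605 higher and 579 lower (48.9% lower, and 60.4% with each library scaled to its median). All 4 triple null libraries were above all 4 Cre alfp libraries for Me1. These groups also differed in the Foxa1 RNA that remained, 3.28 ± 0.283 against 1.24 ± 0.1 RPKM (difference 0.94, limma adjusted p = 0.000403, without overlap), and its part in the difference of Me1 was not tested. The authors' deposited table gives 1.17 for Me1 (p adjusted here, 4.08e-05). Among tested markers, 6 of 7 of sinusoidal endothelium, 1 of 3 stellate and 1 of 3 erythroid were called lower in the triple null. The erythroid marker was Alas2, at 1.04 ± 0.281 against 14.9 ± 7.47 RPKM. The globins Hba-a1 and Hbb-b1 averaged higher in the triple null, at 5.72 against 2.70 and 6.17 against 3.94 RPKM. No marker of these 3 lists was called higher, and their part in the difference of Me1 was not tested.

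In FoxA3 null against lox none of the 10 genes was called by limma, 1 had an unadjusted p under 0.05 (46.3% of all genes did), and 7.19% of all genes tested were called, 418 higher and 409 lower (49.5% lower, and 63.7% under median scaling). That gene was Me1, at a difference of 1.00 (SE 0.30, adjusted p = 0.0224) that fell just short of 1 before rounding. The count depends on single libraries. Without FoxA3 null library 3 it was 2, Acaca at 1.33 (limma adjusted p = 0.0434) and Me1 at 1.11 (0.0169), and without FoxA3 null library 4 it was 1, Me1 at 1.02 (0.0379). A pseudocount of 0.1 also gave Me1 alone. Without lox library 3, 4 members were called higher in FoxA3 null, against 9.47% of all genes tested: Acly by 1.30 (limma adjusted p = 0.0168), Acaca by 1.56 (0.0258), Scd1 by 2.04 (0.00539) and Me1 by 1.33 (0.00662). Of the members not called, Gpam was then at 0.86 (limma adjusted p = 0.015, under the minimum size), Srebf1 at 0.96 and Fasn at 0.56. Scd1 was at 772, 573, 315 and 291 RPKM in FoxA3 null and at 113, 104 and 649 in lox.

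In the triple null against lox 1 member was called, against 13.5% of all genes tested, 888 higher and 668 lower (42.9% lower, and 54.9% under median scaling). Elovl6 was lower by 1.05 (SE 0.38, limma adjusted p = 0.0401), and by 1.18 after that shift was subtracted, with triple null libraries at 6.59, 3.51, 5.31 and 3.22 RPKM that overlapped the lox libraries. Without lox library 3 the difference of Elovl6 was -0.51 (adjusted p = 0.225). Scd1 was then called higher, by 1.47 (adjusted p = 0.0184), against 14.9% of all genes tested. Srebf1, at -1.18 with all libraries, was at -0.29 without lox library 3. Fasn and Thrsp went from -0.20 and 0.57 to 0.75 and 1.78. Without lox library 2 instead, 2 members were called, and Srebf1 was lower at -1.83 (limma adjusted p = 0.0494). Me1 differed by -0.29 (interval -0.94 to 0.36) with all libraries and by 0.04 (adjusted p = 0.929) without lox library 3. With all libraries 5 of 7 tested endothelial markers and 1 of 2 cholangiocyte markers were called lower, and none higher. Of 3 erythroid markers 2 were called higher and 1 lower. Their part in the member differences was not tested. The authors' deposited table against the undeleted control gives log2 fold changes of -1.58 for Elovl6 (adjusted p = 0.0135) and -0.61 for Me1 (adjusted p = 0.037).

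In libraries labelled HNF4a null, Scd1, the desaturase, had the largest difference of the 10 genes. It was lower by 4.27 on the log2 scale, 18.9-fold in mean RPKM, while Acaca rose 2.60-fold. These 2 members were called, 1 in each direction, against 14.5% of all 12434 genes tested, 1067 higher and 740 lower (41% lower, and 65.8% under median scaling). All genes shifted by a median of 0.34 in this comparison, so each difference is also given relative to that shift. The median of the 10 genes was -0.27.

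Scd1 was at 72.9, 38.4, 85.7 and 77.3 RPKM in libraries labelled HNF4a null and at 1436 and 1152 in the controls. The highest of the former was thus far below the lowest control. The difference was -4.27 (SE 0.32, limma adjusted p = 0.000119), -4.61 after the shift was subtracted, and leaving out any 1 library gave -4.43 to -4.02. Scd1 belongs to a cluster of near-identical Scd genes that can share reads, so its value is uncertain to that extent.

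Acaca was at 146, 126, 125 and 259 RPKM in libraries labelled HNF4a null and at 68.1 and 57.9 in the controls, without overlap. The difference was 1.30 (SE 0.30, limma adjusted p = 0.0114), and 0.97 after the shift was subtracted. Without control library ATTCCTA, named by its barcode, it was 1.19 and no longer called (adjusted p = 0.0741). Acacb, its mitochondrial relative, was not called and differed by -0.20 (interval -0.69 to 0.30). Relative to the shift it was at -0.53 (interval -1.03 to -0.03).

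A further 4 members had an adjusted p under 0.05 with a difference under the minimum size, which makes 6 of 10 at that threshold alone, near the 52.8% of all genes. Me1 was at 18.2, 14, 14.3 and 17.1 RPKM against 29.1 and 25.6, a difference of -0.75 (SE 0.13, limma adjusted p = 0.00409) that became -1.09 with the shift subtracted. Fasn was at 27.8, 31.6, 25.6 and 39.3 against 42.7 and 60.1, a difference of -0.71 (adjusted p = 0.0256) or -1.04 relative to it. Elovl6 at -0.46 (adjusted p = 0.0475) was -0.80 relative to it. Each of these 3 genes was below both controls in all 4 libraries; groups did not overlap for 7 of the 10 members, against 67% of all genes. Thrsp went the other way, at 986, 651, 696 and 1396 RPKM against 494 and 469, a difference of 0.88 (adjusted p = 0.0476) or 0.55 relative to the shift.

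Srebf1 differed by -0.35 (limma adjusted p = 0.0839), -0.69 relative to the shift. Acly differed by 0.43 and by 0.10 relative to it. Gpam was level at 50.1 ± 3.09 (n = 4) and 49.5 ± 1.82 RPKM (n = 2), and its difference of 0.01 turned to -0.32 relative to the shift. The authors' deposited table for this contrast lists 7 members lower and 1 higher at adjusted p under 0.05, from -4.65 for Scd1 to 1.02 for Acaca, where 24.9% of its 12244 genes are lower and 21.4% higher at that threshold. Among other cells, cholangiocyte markers summed to 125 to 223 RPKM in libraries labelled HNF4a null against 14.8 to 15.0 in the controls. Kupffer markers summed to 145 to 184 against 119 to 127, endothelial ones to 198 to 214.5 against 143 to 168, and stellate ones to 132 to 151 against 106 to 119. Sums of erythroid markers overlapped, at 165.5 to 499 against 258 to 286. Within them Alas2 was lower, at 8.46 ± 2.19 against 66.8 ± 15.1 RPKM. Hba-a1 and Hbb-b1 averaged higher with overlap, at 74.45 against 59.1 and 246 against 146 RPKM. The part of these cells in the differences was not tested.

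The 10 genes varied between libraries of a group more than most genes, with all 15 hepatocyte libraries included. The residual SD on the log2(RPKM + 1) scale ran from 0.37 for Gpam, at percentile 81.8 of all genes tested, to 1.42 for Thrsp, at percentile 99.1, against a median of 0.23 over all genes. Without lox library 3 it ran from 0.29 to 1.16 for the same 2 genes. That of Acacb went from 0.82 to 0.49 and that of Fasn from 0.89 to 0.57. The percentiles and the median over all genes were not computed again without that library. Thrsp varied widely within Cre alfp alone, with libraries 1 to 4 at 28.2, 84.5, 111 and 508.

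They also varied together. Over the 15 hepatocyte libraries, deviations from the group means correlated positively in all 45 pairs of genes, with a median Pearson r of 0.65 (range 0.31 to 0.87). Much of this came with lox library 3: without it 38 of the 45 pairs were positive, with a median of 0.29 (range -0.28 to 0.81). Then 7 pairs were at 0.6 or more: Acaca with Gpam at 0.81, Srebf1 with Thrsp at 0.74 and with Fasn at 0.72, Acly with Gpam at 0.68, Elovl6 with Thrsp at 0.66, Scd1 with Gpam at 0.63 and Fasn with Thrsp at 0.61. With FoxA3 null library 1, where Acaca stood apart, also left out, Acaca with Gpam was at 0.44, Srebf1 with Thrsp at 0.73 and Srebf1 with Fasn at 0.88 over 13 libraries. Acaca and Fasn, the carboxylase and the synthase of the same route, had r of 0.31 over 15 libraries, -0.28 without lox library 3 and 0.30 with both libraries left out. These are descriptions over libraries that share groups and scaling.

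**Figure D4:**
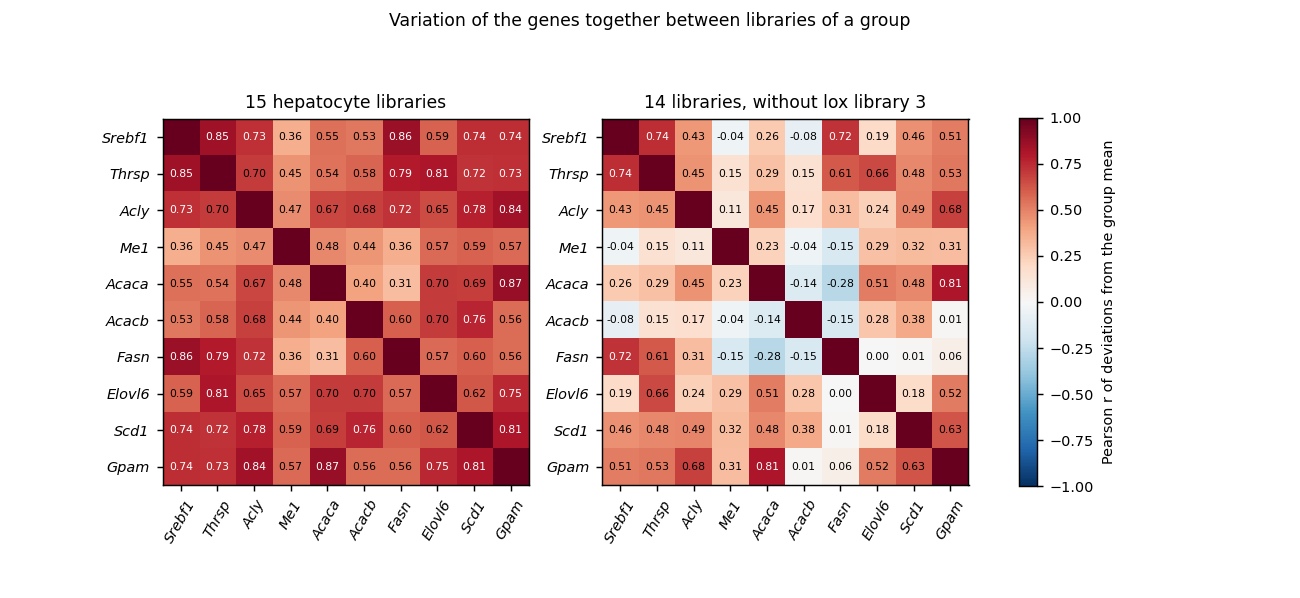
Pearson r of deviations from the group mean of log2(RPKM + 1) for each pair of the 10 genes (colour and number), over 15 hepatocyte libraries (left) and without lox library 3 (right). The median of the 45 pairs is 0.65 on the left and 0.29 on the right, and 7 pairs on the right are at 0.6 or more.

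Among 6996 genes with a mean of at least 5 RPKM, the levels most like each of 4 members over the 15 hepatocyte libraries were found by Pearson r of log2(RPKM + 1). For Srebf1 they were Bhlhe40, a basic helix-loop-helix repressor, at 0.878, H2-Q6 at 0.835 and Gnat1 at 0.777. For Scd1 they were Pklr, the liver pyruvate kinase, at 0.864, Tbl1x at 0.841 and Mid1ip1, a relative of Spot 14 that polymerises acetyl-CoA carboxylase, at 0.836. For Thrsp they were Map2k3 at 0.855, Aacs, the acetoacetyl-CoA synthetase, at 0.842 and Tomm40 at 0.837. For Fasn they were Ahcy at 0.843, Ccrn4l at 0.831 and Agxt2l2 at 0.828. Over the 14 libraries without lox library 3 the 12 values ran from 0.637 for Gnat1 to 0.892 for Tbl1x. Those of Ahcy and Ccrn4l with Fasn were then 0.723 and 0.668, that of H2-Q6 with Srebf1 was 0.735, and the other 8 were at least 0.789, the value of Tomm40.

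The genes around the route were described from 6 lists. In the triple null against FoxA3 null, where 8.11% of all genes tested were called, 1 of 24 tested regulators of lipogenic transcription was called, Scap, the escort protein of SREBP, lower at -1.47 (limma adjusted p = 0.00136). Of 19 tested genes for sugar, acetyl-CoA and NADPH supply, 1 was called, G6pdx, the first enzyme of the pentose phosphate route to NADPH. It was at 14.7 ± 3.47 against 2.23 ± 0.636 RPKM (n = 4 each), higher by 2.28 (limma adjusted p = 1.07e-06), in the groups where Me1 was lower. None of 9 tested genes that control the carboxylase or the synthase was called by limma, and 3 had an unadjusted p under 0.05 (41.3% of all genes did).

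Further along the route, 5 of 20 tested genes for desaturation, elongation and activation were called, 2 higher and 3 lower in the triple null. The share called over all genes tested was 8.11%. Scd2, a desaturase scarce in adult liver, was at 32.5, 16.2, 23.4 and 31.9 RPKM in the triple null and at 0.335 to 0.514 in FoxA3 null, a difference of 4.19 (limma adjusted p = 3.13e-09). Elovl3 and Elovl2, elongases of very long fatty acids, were lower at -4.50 and -3.24, and the thioesterase Acot1 at -3.43. Of 25 tested genes for triglyceride assembly and droplets, 5 were called higher and 1 lower. Cidec, a lipid droplet fusion protein, was at 52.0 ± 7.11 against 2.00 ± 0.614 RPKM, a difference of 4.15 (limma adjusted p = 2.48e-06). Mogat1 and Agpat1, both acyltransferases, were higher by 1.92 and 1.73, and Lpin2, a phosphatidate phosphatase, was lower, at -2.1. The median of this list was 0.41.

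Of 14 tested genes of the fasting response, 1 was called higher and 4 lower in the triple null, against 8.11% of all genes called. Pdk4, which shuts pyruvate out of acetyl-CoA, was higher by 1.19, while the fatty acid hydroxylase Cyp4a14 was lower at -2.65, the hormone Fgf21 at -1.61 and glucose-6-phosphatase G6pc at -1.5. Markers of sinusoidal endothelium summed to 8.16 to 16.9 RPKM in the triple null and 31.0 to 47.8 in FoxA3 null, and stellate markers to 6.5 to 23.4 and 25.0 to 34.2. The 3 erythroid markers tested were called. Hba-a1 and Hbb-b1, globins, were higher in the triple null, at 5.72 ± 3.26 against 0.790 ± 0.271 and 6.17 ± 4.03 against 1.24 ± 0.266 RPKM, and Alas2, an enzyme of heme synthesis, was lower, at 1.04 ± 0.281 against 38.9 ± 5.74 (n = 4 each). The erythroid marker Slc4a1 averaged below 0.1 RPKM in both groups. No tested marker of Kupffer cells or cholangiocytes was called by limma in this comparison, and none had an unadjusted p under 0.05. Their part in any of these differences was not tested. The adipocyte list summed to 8.93 to 18.3 RPKM in the triple null against 4.99 to 6.16 in FoxA3 null, and nearly all of it was Lipe, at 12.2 ± 4.29 against 5.48 ± 0.477 RPKM (n = 4 each). Retn averaged 0.124 and 0.00201, and the other 5 markers averaged below 0.1 in both groups.

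In Cre alfp against lox, limma called 2 of the same 20 desaturation and elongation genes and none of the other pathway lists, against 2.38% of all genes tested. In those lists 5 of 24 regulators, 5 of 19 supply genes, 6 of 25 triglyceride genes, 0 of 9 control genes and 1 of 14 fasting genes had an unadjusted p under 0.05, as did 18.3% of all genes. Without lox library 3 the desaturation and elongation list had 3 called, with Elovl3 lower at -5.53 (limma adjusted p = 0.00841) beside Scd2 and Acot1, and the other pathway lists still none. With all libraries 2 of 3 tested erythroid markers were called, 1 higher and 1 lower, and 1 of 2 cholangiocyte markers was lower; their part in the member differences was not tested. Scd2 had 18.6, 22.6, 17.4 and 11.4 RPKM in the Cre alfp libraries, with lox at 0.124, 0.117 and 0.0704, higher by 4.03 (limma adjusted p = 1.8e-07). Acot1 was lower at -1.53 (adjusted p = 0.013). Scd1 itself was at -0.57 and 0.16 in the 2 deletion comparisons, with intervals of -1.70 to 0.56 and -1.06 to 1.38, and the second was 1.01 without lox library 3. Scd1 and Scd2 lie in the same cluster of similar genes, and reads could be split between them.

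In libraries labelled HNF4a null, where 14.5% of all genes tested were called, 2 supply genes were higher and 6 lower of 19. Pklr was lower, at -2.02, as was the citrate carrier Slc25a1 at -1.48, while transketolase (Tkt) was higher by 1.61. Of 20 desaturation and elongation genes, 4 were higher and 7 lower, among them Elovl3 at -3.82 and Fads2 at -2.55, and Acot1 and Acot2 higher by 2.87 and 2.58. Of 24 regulators 1 was lower and 1 higher: Insig1, which holds SREBP in the endoplasmic reticulum and is itself an SREBP target, at -2.43 (limma adjusted p = 0.000418), and Insig2 at 1.29. Of 25 triglyceride genes 3 were higher and 4 lower, with Cideb at -4.21, Fitm1 at -3.84 and the lipoprotein loading protein Mttp at -2.76, and Pnpla3 higher by 1.53. Of 10 genes that control the carboxylase or the synthase 2 were higher, Mid1ip1 by 1.33 and the AMPK subunit Prkab1 by 1.2. Of 13 fasting genes 1 was higher, Pdk4 by 2.39, and 5 were lower, among them G6pc at -3.07, Cyp4a10 at -2.52 and Ppara at -2.18.

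The authors' deposited tables also set hepatoblasts and newborn hepatocytes against adult hepatocytes, with the adult libraries not named in the sources used here. Of the 10 genes, 4 were lower and none higher in each of the tables at adjusted p under 0.05. At that threshold 37.9% of the 13473 genes in the hepatoblast table and 31.7% of the 12176 in the newborn table are lower, so the count of 4 in 10 is near the share of all genes. In hepatoblasts they were Me1 at -3.02 (adjusted p = 5.36e-15), Gpam at -1.96, Scd1 at -3.24 and Thrsp at -3.86. In newborn hepatocytes they were Me1 at -3.63 (adjusted p = 6.2e-23), Scd1 at -6.31, Elovl6 at -1.81 and Thrsp at -8.08. Fasn and Acly did not pass in either table, at -0.33 and 0.39 in hepatoblasts and at -1.08 and 0.95 in newborns.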

How the data were processed

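RNA was sequenced from 15 hepatocyte and 6 liver libraries. Per the labels' protocols a single library kit and sequencer model were used. The authors deposited RPKM values for 33773 gene symbols. The submitters' processing notes name Cufflinks 2.2.1, SAMtools, DESeq2 and mm9, without saying which step or table each made. Of the matrix's columns 21 were used and 9 others were not used here, and liver columns are named by barcode. RPKM hold no counts, so no count model was fitted.

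Groups were compared on log2(RPKM + 1), a scale that understates changes of low genes, by lmFit and eBayes with trend of limma 3.58.1 under R 4.3.3. The hepatocyte fit took genes with at least 1 RPKM in at least 3 libraries and the liver fit in at least 2. Calls needed a Benjamini-Hochberg adjusted p under 0.05 and a difference of at least 1. The scripts were tested on simulated data.

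The authors' deposited log2 fold changes and p-values were copied from their tables. The sign of the table against undeleted controls was turned, and the p-values of the table against Cre alfp were adjusted here. Gene names and promoters came from RefSeq tables on GRCm38.p6. The deposited HNF4a peak list (36755 peaks with a score) has positions past the last GRCm38 gene on 9 of 21 chromosomes, so it was not joined to genes.

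All 10 member genes, the targeted genes and, per list and main comparison, at most 4 called genes by size of difference are named, plus the 3 genes most like each of 4 members. A gene that the rule selects and a marker gene are not reported here. Members, lists and tests were chosen with earlier results of these data known. The 6 pathway and 8 marker lists held 2 symbols that the matrix lacks. Alternatives were the pseudocount, the filter, the scaling, the minimum difference, the libraries fitted, a replicate block and leaving out each library. Replicate numbers did not pair the libraries.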

Additional observations from a re-analysis of the deposited data

Results flagged for a closer look

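A library far from the others of its group by Dixon's ratio was found for 3 of the 40 combinations of gene and group of 4 libraries that were examined, where chance flags about 1 in 20. Acaca was at 23.4 RPKM in FoxA3 null library 1, and the other FoxA3 null libraries were at 3.02 to 6.06 (ratio 0.85). In the liver library labelled HNF4a null with barcode TAGCTTA, Acly was at 137 RPKM (ratio 0.94) and Acaca at 259 RPKM (ratio 0.841). Thrsp had its group's highest value there too, 1396 RPKM. Groups of 3 were not examined this way, so lox library 3 is not among them.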

How the results depend on the processing

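No called member changed sign under any alternative. Members called neither in the reported result nor under the alternative changed sign 2, 13, 2, 10, 2, 10 and 4 times in triple null against FoxA3 null, Cre alfp against lox, the interaction, triple null against lox, the same against Cre alfp, FoxA3 null against lox and the liver comparison. In that order, without a minimum difference 3413, 628, 1658, 4891, 4743, 4001 and 6569 genes were called, with 1 member in FoxA3 null against lox and 6 in liver. A mean of at least 5 RPKM left 171 genes in Cre alfp against lox, 1133 in liver, and 1 member in triple null against FoxA3 null, since Acaca was not tested. Without a filter that count was 1, and 0 members were called in triple null against lox. Fitting only the groups compared gave 182 genes in Cre alfp against lox and 1, 0 and 0 members in triple null against FoxA3 null, Cre alfp against lox and triple null against lox. Quantile normalization gave 2 members in Cre alfp against lox. A pseudocount of 0.1 gave 1303 genes and 1 member in FoxA3 null against lox. The cause of these changes was not tested.

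Leaving out each library gave 177 to 284 genes in Cre alfp against lox. It gave 1 to 2 members in triple null against FoxA3 null, 1 to 2 in Cre alfp against lox, 0 to 2 in triple null against lox, 0 to 4 in FoxA3 null against lox and 1 to 3 in liver. The median r of the 45 pairs ran from 0.29 to 0.72, an alternative chosen after seeing the data, as were the member median and list counts without lox library 3 and the correlations without 2 libraries. Me1 in triple null against FoxA3 null, Me1 in triple null against Cre alfp and Scd1 in liver were called under every alternative run.

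Same-numbered libraries correlated at -0.36 to 0.12 in their deviations, so the numbers do not pair them. With a replicate block 1 member was called in triple null against FoxA3 null (Acaca lost, adjusted p = 0.0743) and 0 in triple null against lox. Liver columns carry no number. Under median scaling Me1 was also called in liver, at -1.02. The planned description of HNF4a peaks near these genes, and its alternatives, was not run. With unknown depth, no counting error can be given for low genes such as Acacb.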

Other observations

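Dbp, a clock-controlled transcription factor looked up after the members' values were seen, was at 1.70, 5.91 and 175 RPKM in lox libraries 1 to 3, the library that was highest for all 10 lipogenic genes being highest for Dbp as well. In the other groups it was at 157, 206, 50.6 and 122 RPKM in FoxA3 null, at 253, 160, 202 and 127 in the triple null, at 203, 2.88, 63.7 and 342 in Cre alfp, and at 27.6 to 40.2 in the 6 liver libraries. Its relation to the lipogenic genes was not tested.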
